A study of Mus musculus with 7 samples.

Results

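The collagen chain genes of the mouse were described across knockout and wild type at day 0 and day 6 of treatment. The 44 members are the genes whose symbol has the form Col, number, a, number, out of 19937 genes measured. Each gene was read from the probe set that names it alone, and Col6a5 and Col6a6, which have 2 such probe sets, from the one with the higher mean over the 7 arrays. By structure, 11 members are fibrillar, 6 belong to the basement membrane, 9 are FACITs (fibril-associated collagens with interrupted triple helices) and 18 are of other kinds. All 44 collagen chain genes that the RefSeq gene table lists for the mouse were measured.

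RNA of mouse tissue was measured on 7 arrays of the type Affymetrix Mouse Gene 1.0 ST. Knockouts of Iqgap1 gave 2 arrays for day 0 and 2 for day 6, and wild types gave 1 for day 0 and 2 for day 6. Iqgap1 encodes a scaffold protein of the Ras-ERK cascade. All animals had a mixed C57BL/6 and 129 background, and the label of every sample, those of day 0 included, names topical 4OHT (4-hydroxytamoxifen, a ligand that switches on tamoxifen-dependent proteins) as agent. The labels name neither a tamoxifen-dependent protein, nor the tissue or its site, nor the age of the mice, nor if each replicate was its own mouse. P-values therefore measure only how far these samples lie apart, and that spread may be technical.

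Iqgap1 read 8.58 to 9.02 in the 4 knockout arrays and 9.94 to 10.59 in the 3 wild-type arrays, on the log2 scale used for all values below. Its arrays did not overlap between genotypes, and the difference passed at day 0 (-0.94 ± 0.24, SE; limma adjusted p = 0.0461) but not at day 6 or over both days (adjusted p = 0.503 and 0.239). Krt5 (12.14 to 12.79) and Krt14 (11.71 to 12.89), the keratins of basal keratinocytes, were high in all arrays. Replicate 1 of wild type at day 0 and at day 6 had signal of Xist, which coats the inactive X chromosome (10.30 or more, against 4.03 or less in the other 5 arrays). Since the only wild-type array of day 0 had this signal and both knockout arrays of that day lacked it, genotype and this split cannot be told apart there. Genes without signal lay between 3.50 and 4.25, read from Xist and Y-linked genes in the arrays that lack them. No collagen chain value of the probe sets used lay in that range, though Col19a1 came down to 4.248, against an upper limit of 4.245. The second probe sets of Col6a5 and Col6a6 did have values in it (down to 3.95 and 4.09). Detection calls were not used here, so a value a little above the range is not shown to be transcript.

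Collagens are secreted proteins of 3 chains wound into a triple helix. Fibrillar collagens form the rope-like fibrils of the dermis, made by fibroblasts, and FACITs coat those fibrils. Network-forming collagen IV underlies the epidermis and vessels as part of the basement membrane, which type VII anchors to the dermis, while type XVII is a transmembrane protein that holds basal keratinocytes to it. Type VI forms beaded filaments around cells, and types XV and XVIII carry sugar chains and lie at basement membranes.

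Over both genotypes, 2 of the 44 members rose between day 0 and day 6 and 2 fell, while 40 did not pass (limma, additive fit of genotype and day, adjusted p under 0.05). Col18a1 and Col7a1 rose, and Col14a1 and Col15a1 fell. Among all genes 5.85% rose and 5.62% fell, so the members' shares of 4.55% in each direction were near the background. The median day change of the members was -0.03, against 0.06 over all genes. In bulk tissue, fewer cells of a type and less RNA per cell cannot be told apart.

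Col14a1 encodes a FACIT on the surface of dermal fibrils. It read 9.85 and 9.94 in knockout at day 0, 8.94 in wild type at day 0, 6.27 and 7.50 in knockout at day 6, and 5.76 and 6.20 in wild type at day 6. All 4 day 6 arrays lay below all 3 day 0 arrays. The fitted change was -2.99 ± 0.29 (SE; limma adjusted p = 0.00273), a level 7.93-fold lower at day 6. It was -3.01 ± 0.38 in knockout (limma adjusted p = 0.00324). For wild type, where day 0 is a lone array, it was -2.95 ± 0.47 (SE; adjusted p = 0.0139). The difference of these changes was -0.06 ± 0.60 (SE), which did not pass.

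Col18a1 encodes the chain of which endostatin is a fragment. Its values were 7.97 and 8.37 in knockout at day 0, with wild type at 7.76, and 9.03 and 9.05 in knockout at day 6, and 8.76 and 8.81 in wild type at day 6. Every day 6 array lay above every day 0 array. The chain rose by 0.93 ± 0.14 (SE; limma adjusted p = 0.0101), or 1.91-fold, with 0.87 ± 0.18 in knockout and 1.03 ± 0.22 (SE) in wild type. The call over both genotypes held in 17 of 17 alternatives, and that in wild type alone in 3 of 14 (adjusted p up to 0.0871).

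Col15a1 encodes the other chain of the same class, the multiplexins, and moved the other way. It stood at 9.43 and 9.31 in knockout at day 0 and at 7.53 in wild type, and at day 6 at 6.93 and 7.63 in knockout and 6.83 and 6.91 in wild type. The higher knockout array of day 6 thus lay above the wild-type array of day 0. The fitted change was -1.52 ± 0.32 (SE; limma adjusted p = 0.0304), made up of -2.09 ± 0.24 in knockout (adjusted p = 0.00242) and -0.66 ± 0.30 (SE) in wild type, which did not pass. Over both genotypes the call was lost in 5 of 17 alternatives. These left out either replicate of knockout at either day, or centred arrays on their medians. In alternatives without the wild-type array of day 0, the change is that of knockout alone.

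Col7a1 encodes the chain of anchoring fibrils. It read 6.81 and 6.93 in knockout at day 0, with wild type at 6.78, against 7.66 and 7.86 in knockout and 7.70 and 7.42 in wild type at day 6. The 4 day 6 arrays all lay above the 3 day 0 arrays. Col7a1 rose by 0.84 ± 0.13 (SE; limma adjusted p = 0.0118), or 1.79-fold. The call was lost without knockout day 0 replicate 1 or without knockout day 6 replicate 2, with adjusted p up to 0.0604 over 17 alternatives.

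**Figure D1:**
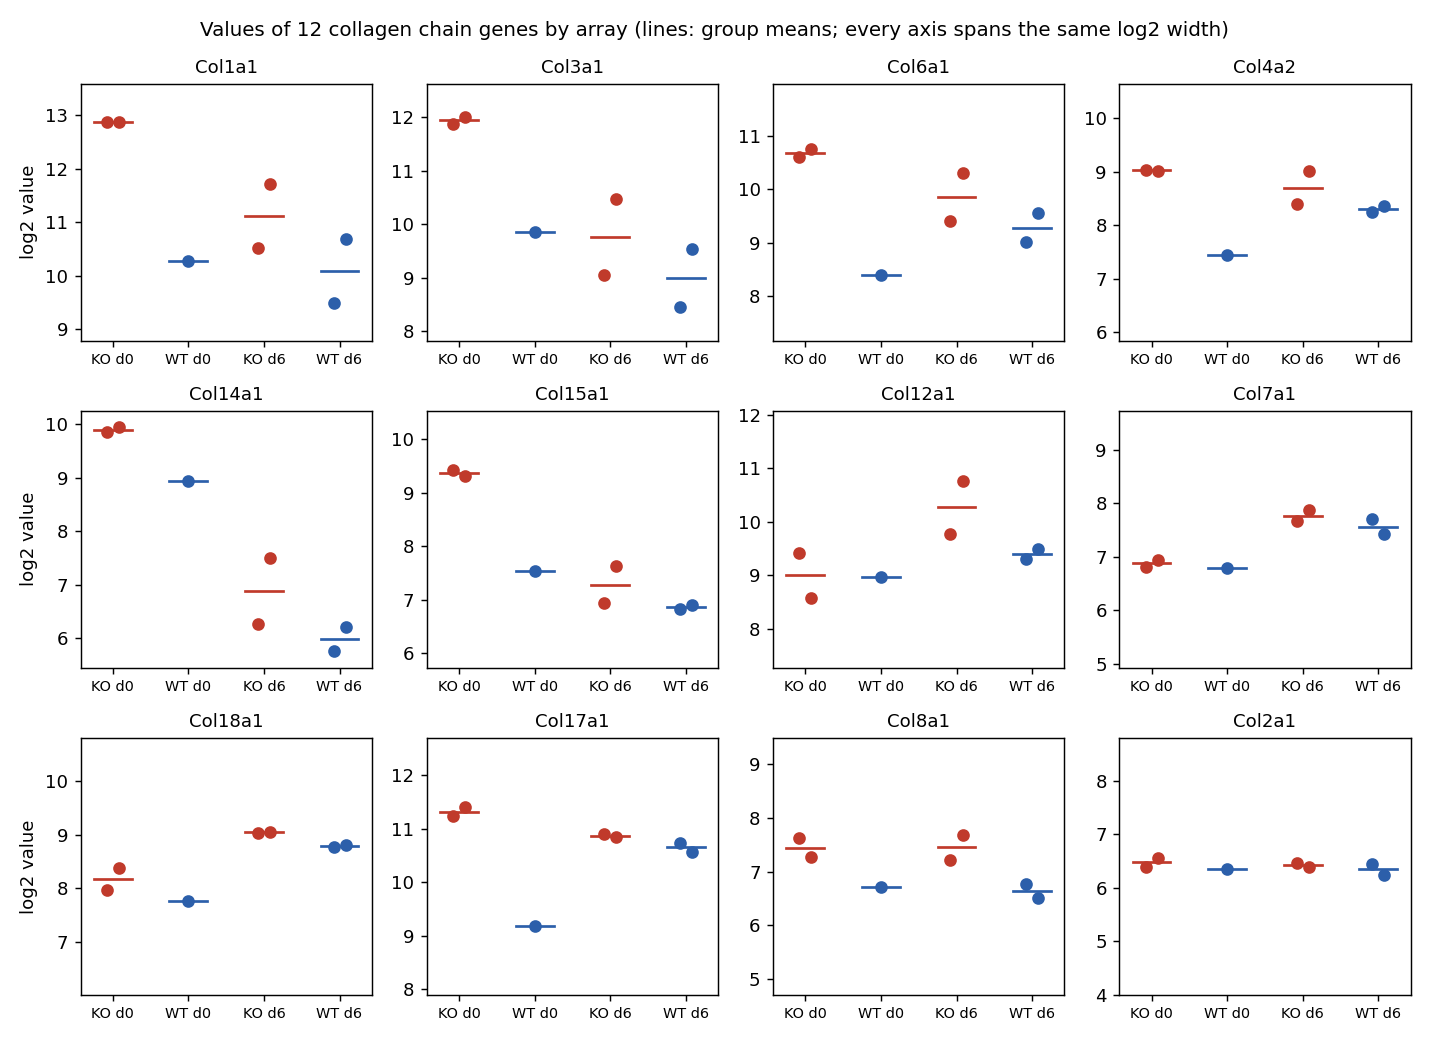
Log2 values of 12 collagen chain genes in each of the 7 arrays, by group on the horizontal axis (KO knockout, WT wild type, d day); each point is 1 array, lines are group means, and all panels span the same log2 width. Col14a1 is lower and Col7a1 and Col18a1 are higher in every day 6 array, while Col6a1, Col4a2 and Col17a1 are lowest in the single wild-type array of day 0. Col1a1 is lower in that array than in knockout at day 0, but lowest in a wild-type array of day 6.

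Of all genes, 11.9% had every day 6 array above every day 0 array and 9.66% had every one below. Among the members these counts were 4 (9.09%) and 3 (6.82%). Besides the 3 chains above they were Col13a1, Col6a4, Col4a5 and Col4a6, none of which passed over both genotypes. Col13a1, a transmembrane collagen, read 5.68 and 5.76 in knockout at day 0, with wild type at 5.94, then 6.37 and 6.42 in knockout and 6.42 and 6.06 in wild type. The change over both genotypes was 0.52 ± 0.15 (SE; limma adjusted p = 0.0713). It rose in knockout by 0.68 ± 0.18 (SE; limma adjusted p = 0.0448), and that call was lost in 7 of 16 alternatives. Col4a5 and Col4a6 encode basement membrane chains, are neighbours on the X chromosome, and differed by -0.44 ± 0.17 and -0.42 ± 0.13 (SE) between the days.

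Within knockout, which has 2 arrays on each day and no array with Xist signal, 3 members rose and 5 fell. The shares of 6.82% and 11.4% stand beside 7.24% and 9.07% among all genes. Besides Col14a1, Col15a1, Col18a1, Col7a1 and Col13a1, the calls were the fibrillar chains Col1a2, Col3a1 and Col5a1, all lower at day 6. In all, 18 of 44 members had both day 6 arrays below both day 0 arrays of knockout (40.9%, against 25.2% of all genes) and 13 had both above (29.5%, against 42.2%).

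The fibrillar chains of the dermis were high in knockout at day 0 and lower at day 6, with the replicates of day 6 far apart. Col1a1 and Col1a2 encode the chains of type I collagen, the main protein of skin. Col1a1 read 12.86 and 12.88 in knockout at day 0, and 10.52 and 11.71 at day 6; Col1a2 read 12.69 and 12.81, and then 10.03 and 11.21. In knockout the day change was -2.13 ± 0.46 for Col1a2 (SE; limma adjusted p = 0.0229) and -1.76 ± 0.48 for Col1a1 (SE; adjusted p = 0.0512, not past the threshold). Their arrays of the 2 days did not overlap in knockout.

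Col3a1 encodes type III collagen, which mixes with type I in skin fibrils. It read 11.87 and 12.01 in knockout at day 0 and 9.04 and 10.48 at day 6, a change of -2.18 ± 0.51 (SE; limma adjusted p = 0.0306). Col5a1 and Col5a2 encode type V, a minor chain set that starts fibrils. In knockout Col5a1 read 8.25 and 8.48, then 6.97 and 7.71 (-1.03 ± 0.26, SE; adjusted p = 0.0395), and Col5a2 read 8.92 and 9.05, then 7.34 and 8.30 (-1.16 ± 0.33, SE; adjusted p = 0.0578). The calls of Col1a2, Col3a1 and Col5a1 were lost in 3, 4 and 9 of 16 alternatives, in each case without either knockout array of day 0 or without knockout day 6 replicate 1 (adjusted p up to 0.109, 0.125 and 0.179).

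In wild type the same fibrillar chains did not pass, against a single day 0 array that was already low. Col1a1 stood at 10.27 at day 0 and at 9.49 and 10.69 at day 6 (-0.17 ± 0.59, SE). Col1a2 stood at 10.45, then 9.35 and 10.43 (-0.57 ± 0.56), and Col3a1 at 9.85, then 8.44 and 9.53 (-0.86 ± 0.63, SE). Col5a1 stood at 6.68, then 6.75 and 6.91, and Col5a2 at 6.93, then 7.02 and 7.52. The wild-type values of both days thus lay within or below the range of the knockout values of day 6. The day change differed between genotypes by -1.59 ± 0.76 for Col1a1 and -1.50 ± 0.52 for Col5a2 (SE), and this difference did not pass for any of the 11 fibrillar chains.

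The other 6 fibrillar chains, Col2a1, Col5a3, Col11a1, Col11a2, Col24a1 and Col27a1, each spanned under 1 log2 unit over the 7 arrays. Col2a1 and the type XI chains are known from cartilage. Col2a1 read 6.23 to 6.56 and Col11a1 5.49 to 5.96. Of the cartilage marker list, 0 of 10 genes passed over both genotypes, with 2 lower at day 6 in knockout. These were Prg4, the lubricin gene (-2.12), and Sox6, a transcription factor (-2.29), which were also higher in knockout at day 0 (3.06 and 2.14) and differed between genotypes in their day change (-3.05 and -1.95). Matn1 stayed at the level of genes without signal in all arrays (4.17 or less).

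**Figure D2:**
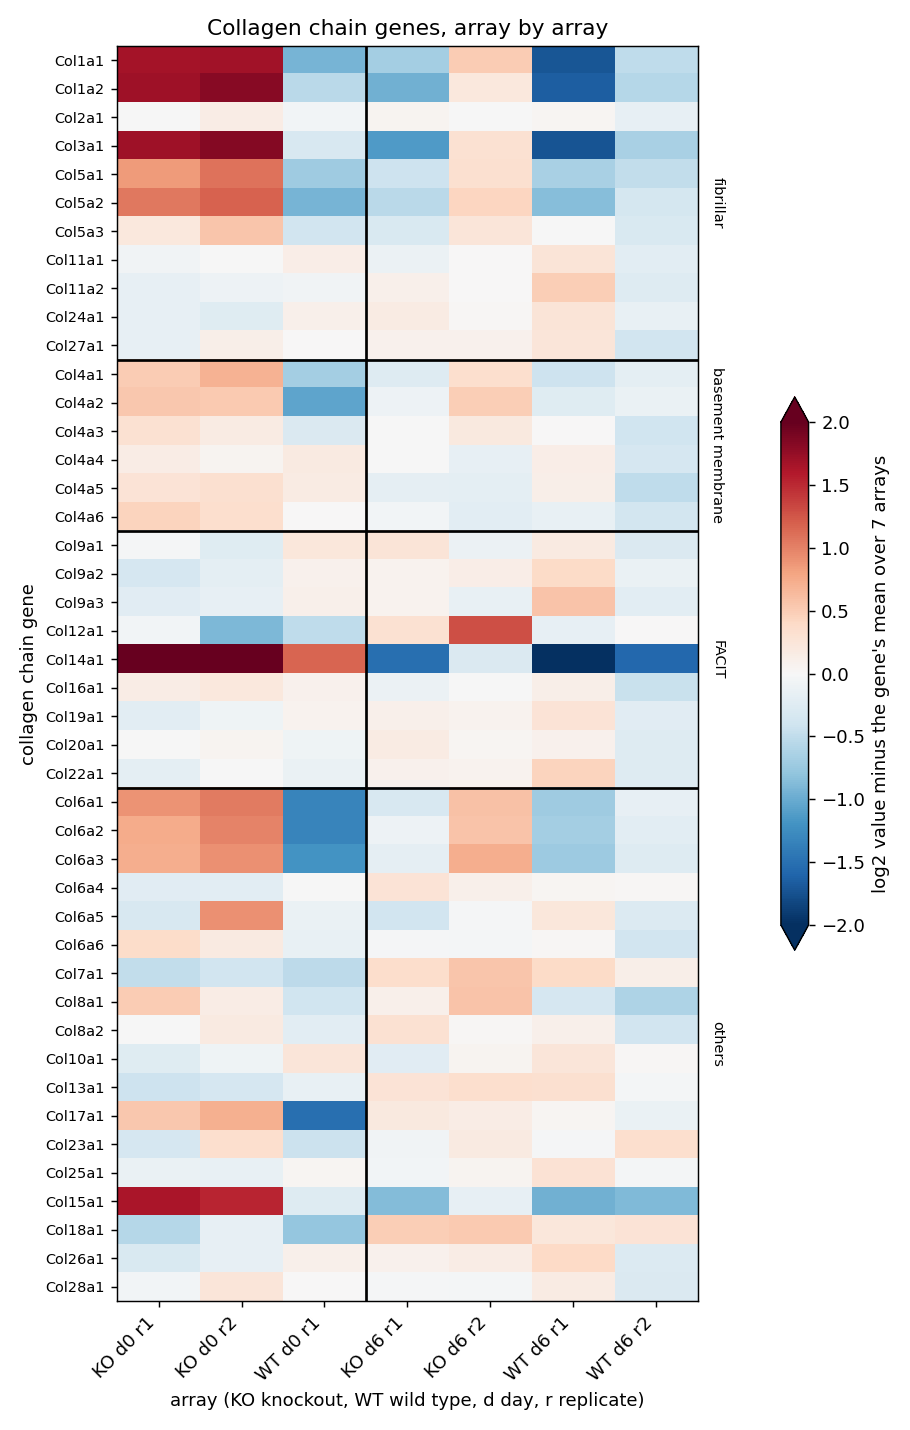
Log2 value of each of the 44 collagen chain genes minus its own mean over the 7 arrays (colour, clipped at 2 log2 units either way), with arrays as columns and genes as rows grouped by structure. Col1a1, Col1a2, Col3a1, Col14a1 and Col15a1 are high in both knockout arrays of day 0, and Col4a2, Col6a1 to Col6a3 and Col17a1 are low in the wild-type array of day 0.

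Promoters are shown for the chains called between the days, as far as the table holds them, because chains that moved together or apart can then be compared by their start regions. RefSeq sequence of GRCm38.p6 was at hand for 35 of the 44 members, among them neither Col1a1 nor Col14a1. Each line gives the 250 bases before the annotated start, read in the direction of the gene. Capitals mark 4 motifs, searched on both strands. CCAAT is a box near many promoters, GGGCGG a GC box, and TATAAA the core of the TATA box. The fourth, TGANTCA, is the binding site of the factor AP-1. No base below lies in more than 1 of these motifs.
Col1a2 (chr6:4505368-4505617, plus strand): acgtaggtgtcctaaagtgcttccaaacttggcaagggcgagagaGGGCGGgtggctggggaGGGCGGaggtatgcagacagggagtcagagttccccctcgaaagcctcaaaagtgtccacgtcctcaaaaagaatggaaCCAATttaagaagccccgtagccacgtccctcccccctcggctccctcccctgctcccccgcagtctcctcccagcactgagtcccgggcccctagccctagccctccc
Col3a1 (chr1:45311288-45311537, plus strand): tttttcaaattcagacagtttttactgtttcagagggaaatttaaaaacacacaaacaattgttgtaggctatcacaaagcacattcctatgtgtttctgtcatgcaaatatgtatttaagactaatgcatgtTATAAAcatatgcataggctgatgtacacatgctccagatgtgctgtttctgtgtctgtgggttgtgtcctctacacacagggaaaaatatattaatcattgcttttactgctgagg
Col5a1 (chr2:27886175-27886424, plus strand): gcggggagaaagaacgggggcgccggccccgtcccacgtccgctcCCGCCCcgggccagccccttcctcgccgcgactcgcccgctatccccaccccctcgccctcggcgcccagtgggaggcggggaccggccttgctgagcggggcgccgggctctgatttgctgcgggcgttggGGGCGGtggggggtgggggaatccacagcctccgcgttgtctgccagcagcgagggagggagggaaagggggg
Col15a1 (chr4:47207762-47208011, plus strand): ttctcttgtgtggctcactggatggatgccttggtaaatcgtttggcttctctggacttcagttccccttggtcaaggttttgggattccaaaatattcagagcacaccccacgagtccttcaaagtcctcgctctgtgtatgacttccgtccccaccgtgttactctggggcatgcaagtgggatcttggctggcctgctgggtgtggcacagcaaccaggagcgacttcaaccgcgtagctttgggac
Col18a1, upstream start (chr10:77166531-77166780, minus strand): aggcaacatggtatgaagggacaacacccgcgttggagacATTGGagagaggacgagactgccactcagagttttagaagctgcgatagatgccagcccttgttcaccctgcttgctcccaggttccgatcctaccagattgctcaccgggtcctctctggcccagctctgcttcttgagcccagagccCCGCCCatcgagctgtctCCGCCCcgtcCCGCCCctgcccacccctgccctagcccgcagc
Col18a1, downstream start (chr10:77113706-77113955, minus strand): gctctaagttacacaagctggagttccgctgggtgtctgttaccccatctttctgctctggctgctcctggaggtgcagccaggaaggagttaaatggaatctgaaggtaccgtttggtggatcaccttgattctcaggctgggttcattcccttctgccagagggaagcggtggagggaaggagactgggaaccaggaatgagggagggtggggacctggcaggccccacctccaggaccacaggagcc
Col7a1 (chr9:108953336-108953585, plus strand): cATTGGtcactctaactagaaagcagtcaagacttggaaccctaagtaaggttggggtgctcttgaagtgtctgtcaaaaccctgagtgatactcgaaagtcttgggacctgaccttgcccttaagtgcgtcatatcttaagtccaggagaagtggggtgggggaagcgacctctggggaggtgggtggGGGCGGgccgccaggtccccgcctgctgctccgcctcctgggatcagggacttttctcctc
Col13a1 (chr10:61979109-61979358, minus strand): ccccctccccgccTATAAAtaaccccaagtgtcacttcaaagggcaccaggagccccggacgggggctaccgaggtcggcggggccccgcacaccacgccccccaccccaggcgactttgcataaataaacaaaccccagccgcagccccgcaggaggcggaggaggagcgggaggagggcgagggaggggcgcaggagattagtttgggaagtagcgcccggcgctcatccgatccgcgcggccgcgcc
Col17a1 (chr19:47692043-47692292, minus strand): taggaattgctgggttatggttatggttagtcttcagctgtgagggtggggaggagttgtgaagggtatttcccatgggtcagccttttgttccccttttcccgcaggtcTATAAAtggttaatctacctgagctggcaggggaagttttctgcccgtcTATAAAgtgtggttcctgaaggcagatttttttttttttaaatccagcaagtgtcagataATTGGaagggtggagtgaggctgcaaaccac

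Col1a2 of type I and Col3a1 of type III, which were both lower in knockout at day 6, have unlike start regions. That of Col1a2 is 62% G or C and holds 2 GGGCGG and 1 CCAAT, while that of Col3a1 is 35.2% G or C and holds 1 TATAAA. The window of Col5a1, also lower in knockout at day 6, is 76.4% G or C with 2 GGGCGG, and that of Col13a1 is 68.8% G or C with 1 TATAAA. The windows of Col15a1 (53.6% G or C) and of the downstream start of Col18a1 (57.6%) hold none of the 4 motifs, and that of the upstream start of Col18a1 holds 3 GGGCGG and 1 CCAAT. Col7a1 has 1 CCAAT and 1 GGGCGG, and Col17a1 2 TATAAA and 1 CCAAT. Counted from the annotated start, TATAAA begins at base -117 in Col3a1, at -237 in Col13a1 and first at -140 in Col17a1. None of these matches is shown to work as a TATA box. Over the 35 members GGGCGG was in 60% and CCAAT in 37.1%, against 32.7% and 33.8% of all 32851 windows. TATAAA was in 14.3% against 12.4%, and TGANTCA in 2.86%, which is Col6a1 alone, against 6.75%. A member was counted if any of its windows held the motif (38 windows in all), while the background is per window. In 28 of the 35 members a window had more G or C than the median of all windows (52.4%). The shares were not corrected for this. A match is a description of letters, not a bound site, and no test was made.

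The basement membrane chains did not pass in any day comparison. Col4a1 and Col4a2 encode the chains of collagen IV found in nearly all basement membranes. They are neighbours on chromosome 8, and their promoter windows of 300 bases share 78 bases, since the genes start head to head. Col4a1 read 9.05 and 9.24 in knockout at day 0, 8.30 and 8.88 in knockout at day 6, 7.87 in wild type at day 0, and 8.14 and 8.36 in wild type at day 6. Col4a2 read 9.04 and 9.02, then 8.39 and 9.00 in knockout, and 7.45, then 8.25 and 8.37 in wild type. For both, the wild-type array of day 0 was the lowest of the 7. The day change was -0.56 ± 0.23 and -0.33 ± 0.22 in knockout and 0.38 ± 0.28 and 0.86 ± 0.27 in wild type (SE).

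Col4a3 and Col4a4 are known from the kidney filter. Col4a3 read 5.83 and 5.69, then 5.50 and 5.72 in knockout, and 5.24, then 5.53 and 5.13 in wild type (day change -0.05 ± 0.15, SE). Col4a4 read 5.91 and 5.82, then 5.75 and 5.60 in knockout, and 5.93, then 5.89 and 5.42 in wild type (-0.23 ± 0.15, SE). Over both genotypes the days overlapped in both chains, while within knockout both day 6 arrays of Col4a4 lay below both day 0 arrays. Together with Col4a5 and Col4a6 these chains spanned under 1 log2 unit. In knockout all 6 basement membrane chains had a day change below 0 (median -0.41, against 0.10 over all genes), from -0.56 to -0.14. In wild type 3 lay above 0 and 3 below (median -0.08).

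Of the FACITs, Col14a1 and Col12a1 varied by more than 2 log2 units over the 7 arrays and the other 7 by under 1. Col12a1 encodes a FACIT of dense connective tissue. It read 9.42 and 8.57 in knockout at day 0, 8.97 in wild type at day 0, 9.78 and 10.77 in knockout at day 6, and 9.31 and 9.49 in wild type at day 6. The knockout arrays of day 6 were the highest, and the other groups overlapped. The day change was 0.94 ± 0.33 over both genotypes (SE; limma adjusted p = 0.129) and 1.27 ± 0.39 in knockout (SE; adjusted p = 0.0712), neither past the threshold. In knockout it passed without day 6 replicate 1 and with limma's trend option. Thus Col12a1 and Col14a1, both coating type I fibrils, had fitted changes of opposite sign, of which that of Col14a1 passed.

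The other 7 FACITs, Col9a1, Col9a2, Col9a3, Col16a1, Col19a1, Col20a1 and Col22a1, did not pass in any comparison. Col16a1, expressed in skin, read 6.79 and 6.86, then 6.54 and 6.64 in knockout, and 6.73, then 6.77 and 6.20 in wild type (-0.24 ± 0.16, SE). Col9a2, of the cartilage collagen type IX, read 6.16 and 6.30, then 6.56 and 6.62 in knockout, and 6.57, then 6.87 and 6.37 in wild type (0.23 ± 0.16, SE). The days overlapped in both. The median of all 9 FACITs was 0.12 over both genotypes.

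The beaded filament chains Col6a1, Col6a2 and Col6a3, the main chains of type VI collagen, had their extremes in the same arrays. Col6a1 read 10.61 and 10.75 in knockout at day 0, 9.40 and 10.30 in knockout at day 6, 8.40 in wild type at day 0, and 9.01 and 9.55 in wild type at day 6. Col6a2 read 10.26 and 10.51, then 9.41 and 10.09 in knockout, and 8.20, then 8.84 and 9.31 in wild type. Col6a3 read 10.43 and 10.61, then 9.52 and 10.43, and 8.50, then 8.97 and 9.44. In all 3 chains the wild-type array of day 0 was the lowest and knockout day 0 replicate 2 the highest. The day change of Col6a1 was -0.83 ± 0.32 in knockout and 0.88 ± 0.39 in wild type (SE; limma adjusted p = 0.142 and 0.276). That of Col6a2 was -0.64 ± 0.27 and 0.87 ± 0.34 (SE; adjusted p = 0.186 and 0.207), and that of Col6a3 -0.55 ± 0.32 and 0.71 ± 0.39 (SE; adjusted p = 0.318 and 0.380). None of these passed. Col6a1 and Col6a2 are neighbours on chromosome 10, and Col6a3 lies on chromosome 1.

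Col6a4, Col6a5 and Col6a6 are a second set of type VI chains, next to each other on chromosome 9. Col6a4 read 4.64 to 5.13, little above genes without signal, and Col6a6 read 6.03 to 6.78. The second probe set of Col6a6 was lower, at 4.78 to 5.51 at day 0 and 4.09 to 4.66 at day 6. Its days did not overlap, while those of the probe set used did. Col6a5 stood at 6.33 in knockout day 0 replicate 2 and at 5.03 to 5.64 in the other 6 arrays. Its second probe set read 7.05 in that array and 3.95 to 4.83 in the others, so both probe sets singled out the same array. Col6a5 did not pass in any comparison.

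Col17a1 encodes the hemidesmosomal collagen of basal keratinocytes. It read 11.23 and 11.41 in knockout at day 0, 10.90 and 10.85 in knockout at day 6, 9.19 in wild type at day 0, and 10.74 and 10.57 in wild type at day 6. The wild-type array of day 0 lay below all the others, which stood between 10.57 and 11.41. In wild type the level rose by 1.47 ± 0.20 (SE; limma adjusted p = 0.00755). In knockout the change was -0.45 ± 0.16 (SE; adjusted p = 0.117).

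Wild type had 2 members that rose and 1 that fell over the days (Col17a1, Col18a1 and Col14a1), or 4.55% and 2.27%, against 3.51% and 3.61% of all genes (7.11% in either direction). Col17a1 was also the single member whose day change differed between genotypes, by -1.92 ± 0.25 (SE; limma adjusted p = 0.0154), where 3.1% of all genes differed, 1.76% upwards and 1.35% downwards. That call was lost without knockout day 0 replicate 2 or without either knockout array of day 6 (adjusted p from 0.00429 to 0.0769 over 14 alternatives). All of these values rest on the 1 wild-type array of day 0.

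**Figure D3:**
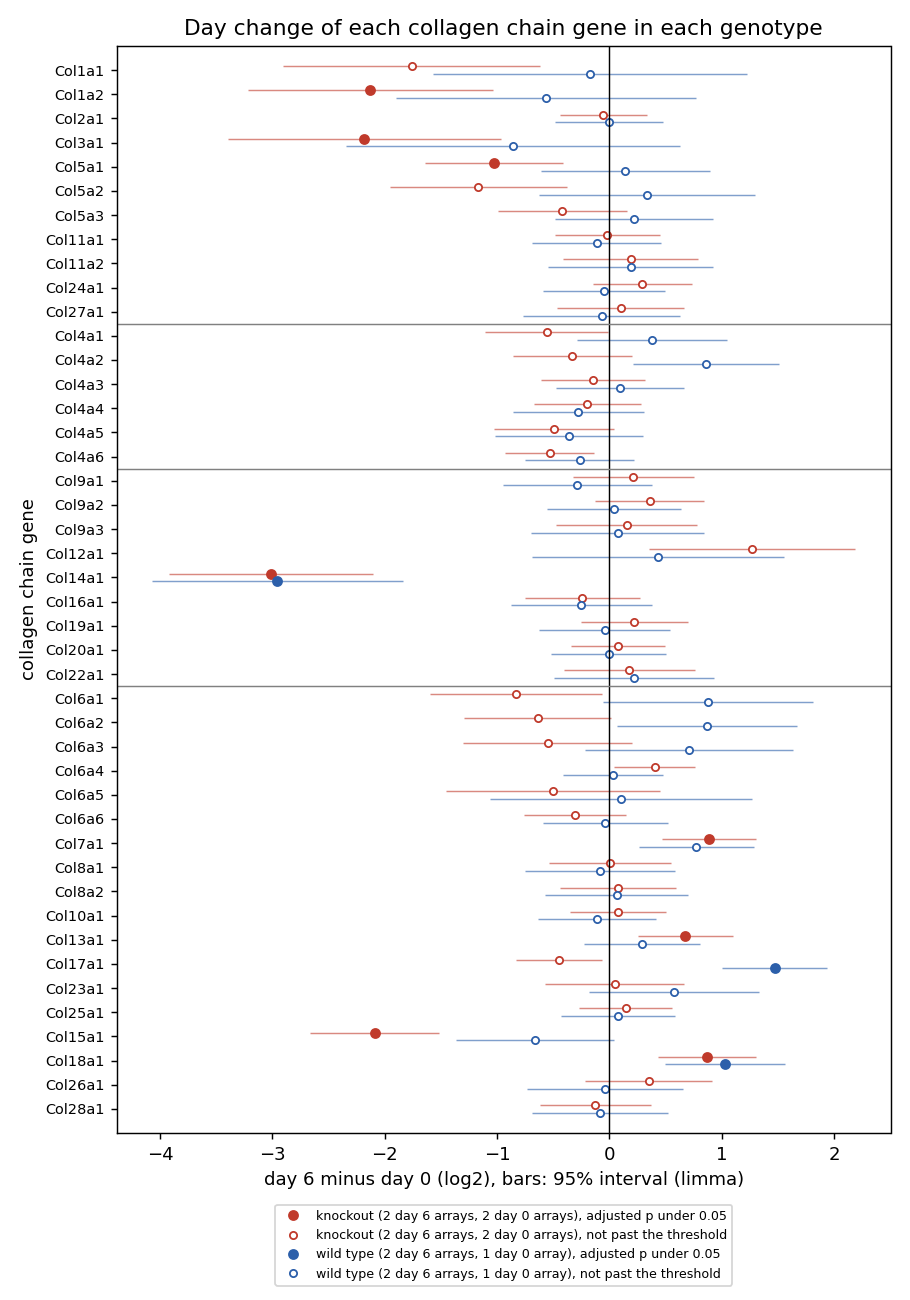
Day 6 minus day 0 for each of the 44 collagen chain genes in knockout (red) and wild type (blue), on the log2 scale with 95% intervals from limma; filled points have an adjusted p under 0.05. Col14a1 and Col18a1 are filled in both genotypes, whereas Col1a2, Col3a1, Col5a1, Col7a1, Col13a1 and Col15a1 are filled in knockout and Col17a1 in wild type.

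The network collagens and the remaining chains did not pass in any comparison. Col8a1, a network collagen of vessel walls, read 7.63 and 7.27 in knockout at day 0, 7.22 and 7.69 in knockout at day 6, 6.72 in wild type at day 0, and 6.77 and 6.50 in wild type at day 6. All 4 knockout arrays lay above all 3 wild-type arrays. Col8a2 and Col10a1, and the transmembrane chains Col23a1 and Col25a1, did not pass in any comparison, and neither did Col26a1 and Col28a1. Col10a1, a marker of growth plate cartilage, read 4.33 to 4.82.

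In total 26 members spanned under 1 log2 unit over the 7 arrays, with values from 4.25 to 7.57. Of these, 25 were higher in wild-type day 6 replicate 1, an array with Xist signal, than in replicate 2, and 16 had their lowest value in that replicate 2. The median over all probe sets was also higher in that replicate 1 (5.79) than in replicate 2 (5.61). These counts were not made over all genes, so they are not shown to be particular to collagens. Of the 18 members with a wider span, 10 had their lowest value in the wild-type array of day 0 and 12 their highest in knockout day 0 replicate 2.

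At day 0, 11 of 44 members were higher in knockout than in the single wild-type array and 0 were lower (limma adjusted p under 0.05). The 25% stands beside 8.53% of all genes higher and 5.86% lower. The 11 were the fibrillar chains Col1a1 (2.61 ± 0.59), Col1a2 (2.30 ± 0.56), Col5a1 (1.68 ± 0.32) and Col5a2 (2.05 ± 0.40), with Col4a1 (1.28 ± 0.28), Col4a2 (1.58 ± 0.27), Col6a1 (2.28 ± 0.39), Col6a2 (2.18 ± 0.34), Col6a3 (2.02 ± 0.39), Col15a1 (1.84 ± 0.30) and Col17a1 (2.14 ± 0.20, SE). Their adjusted p lay between 0.00173 (Col17a1) and 0.0401 (Col1a2). For Col1a1 this is a 6.09-fold difference. Col3a1 was close by (2.09 ± 0.63, SE; adjusted p = 0.0698) but did not pass.

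With a term for the 2 arrays with Xist signal, 1 of these 11 calls remained, that of Col17a1. The difference of the other 10 was still above 0 but did not pass, at 1.76 for Col15a1, 1.47 for Col4a2 and 1.52 for Col5a1, near their values without the term, and at 1.41 for Col1a1 and 1.22 for Col1a2, which were smaller than without it (limma adjusted p from 0.131 for Col15a1 to 0.430 for Col1a2). Without knockout day 0 replicate 1 the count was 5, and without replicate 2 it was 4. The wild-type array of day 0 could not be left out of this comparison. In this fit the Xist term was set only by the gap between the 2 wild-type arrays of day 6. For Col1a1 replicate 2 stood 1.20 above replicate 1 there. The term thus carries that replicate gap over to day 0, and it cannot separate genotype from Xist signal on that day.

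At day 6, with 2 arrays on each side, 0 of 44 members differed between genotypes, as did 0% of all genes (limma adjusted p under 0.05). Iqgap1 itself, at -1.73 ± 0.20 (SE), did not pass there either (adjusted p = 0.503), so a count of 0 does not show that the genotypes were alike. At an unadjusted p under 0.05 there were 3 members, Col8a1, Col6a2 and Col6a3, and 1182 of all genes (5.93%). The knockout mean was the higher in 35 members and the lower in 9, with a median of 0.15 against 0.00 over all genes. Both knockout arrays lay above wild-type replicate 2 in 34 members, but above wild-type replicate 1 in only 17. The counts of 34 and 17 were not made over all genes, so they are not shown to be particular to collagens. By count, the lean thus rests mostly on wild-type replicate 2, which also had the lowest median over all probe sets (5.61). Replicate 2 read below replicate 1 in 25 of the 26 members that spanned under 1 log2 unit. In chains with large differences it could read higher, by 1.20 for Col1a1 and 1.08 for Col1a2, so there the lean does not rest on it. In 11 members (25%) both knockout arrays lay above both wild-type arrays, against 15.9% of all genes, and in 0 members both lay below, against 15.7%. The 11 were Col5a1, Col4a2, Col12a1, Col14a1, Col6a2, Col6a3, Col6a4, Col8a1, Col15a1, Col17a1 and Col18a1.

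Intervals at day 6 were wide. For Col1a1 knockout minus wild type was 1.02, with a 95% interval from -0.12 to 2.16, and for Col3a1 0.77, from -0.44 to 1.99. For Col14a1 it was 0.90 (-0.01 to 1.81) and for Col8a1 0.82 (0.27 to 1.36; adjusted p = 0.801). The replicates of a group were far apart in the same chains: Col1a1 was 1.19 higher in knockout replicate 2 than in replicate 1, and 1.20 higher in wild-type replicate 2. A genotype difference of this size was not separated from that spread. Over both days together 0 members differed in the additive fit, as did 0% of all genes, with 15 members and 18.7% of all genes at an unadjusted p under 0.05. The mean of the genotype differences of both days, from the fit of 4 group means, called 12 members and 11.8% of all genes, so that count rests on the model.

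**Figure D4:**
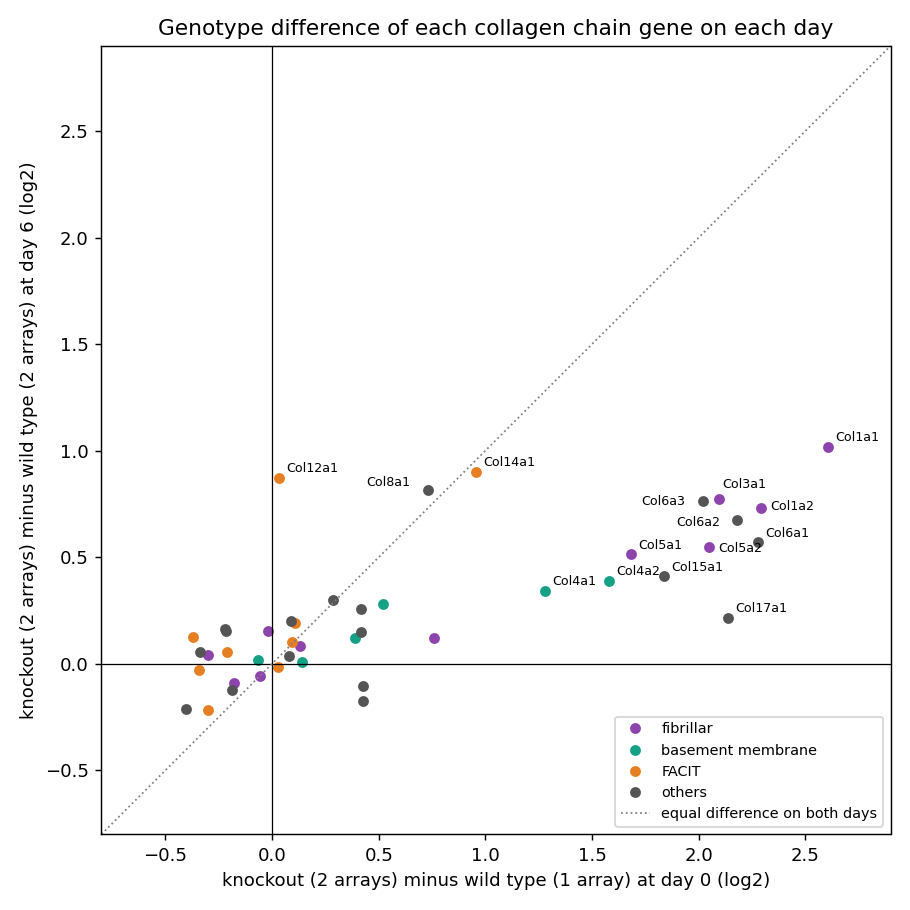
Knockout minus wild type (log2) for each of the 44 collagen chain genes at day 0 (horizontal, against 1 wild-type array) and at day 6 (vertical, against 2), coloured by structural group, with a dotted line of equal differences. The 11 chains called at day 0 lie between 1.28 and 2.61 on the horizontal axis and between 0.22 and 1.02 on the vertical axis, below the line.

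Genes that act on collagens were given by lists chosen for their roles, and those named below for knockout or wild type alone were picked after their values were seen. Of 19 measured genes of collagen modification and folding, 1 rose and 1 fell over both genotypes. P4hb, a subunit of prolyl hydroxylase, rose by 0.51 ± 0.11, and Serpinh1, the collagen chaperone HSP47, fell by 1.27 (SE 0.30). In knockout 8 fell and 0 rose, with Creb3l1 at -1.80, Serpinh1 at -1.72 and the hydroxylase gene P4ha1 at -1.07. P4ha2 fell in knockout and rose in wild type, where 0 fell. At day 0, 9 were higher in knockout and 1 was lower. Serpinh1 read 9.77 and 10.17 in knockout at day 0, with wild type at 8.95, and 7.99 to 8.65 at day 6.

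Of 11 genes of procollagen processing and cross-linking, 1 rose and 1 fell over both genotypes. Tll1, a protease that trims procollagen, rose by 1.88 ± 0.27, and Pcolce2, an enhancer of that trimming, changed by -1.97 ± 0.30 (SE). In knockout 5 fell, among them the cross-linking oxidase genes Lox (-1.50) and Loxl4 (-2.82) and Pcolce (-2.37), and Tll1 rose. Of 14 fibril partners, 6 fell over both genotypes and 0 rose (median -1.21), with Dpt at -1.98 ± 0.21, Ogn at -3.94 ± 0.62, Dcn (decorin) at -0.57 ± 0.11 and Aspn at -1.58 ± 0.34 (SE). Dpt, which binds dermal fibrils, read 11.62 to 12.26 at day 0 and 9.74 to 10.32 at day 6, so the days did not overlap.

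Of 12 genes of collagen breakdown, 4 rose and 2 fell over both genotypes. The collagenase genes Mmp1a, Mmp1b and Mmp13 rose by 4.74 ± 0.31, 3.92 ± 0.28 and 4.44 ± 0.65, and the gelatinase gene Mmp9 by 4.45 ± 0.49 (SE). Mmp1a read 4.01 to 4.19 at day 0, within the level of genes without signal, so its rise has no exact fold. Fap, a protease of fibroblasts, changed by -2.65 ± 0.35 (SE). Of 10 collagen receptors Itga2, the integrin chain of keratinocytes that binds collagen I, rose by 1.94 ± 0.37 (SE), 0 fell, and 9 did not pass. In knockout Ddr2, a collagen receptor kinase of fibroblasts, changed by -1.95.

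Of 18 basement membrane partners, Lama3 (1.67 ± 0.22) and Lama1 (0.73 ± 0.12) rose and Frem2 fell by 0.88 (SE 0.17). In knockout 3 rose and 6 fell, with Lamb2 at -1.94, Lamc1 at -1.56 and Nid1 at -1.34. Of 17 genes of the TGF-beta pathway, which drives collagen synthesis in fibroblasts, Tgfb1 rose by 0.99 ± 0.20, while Ltbp3 (-1.03 ± 0.19) and Ltbp4 (-1.34 ± 0.29, SE) fell. In knockout 8 fell and 1 rose, among them its target Ccn2 (-2.39).

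Markers of cell types that the tissue could hold are given array by array. Of 14 fibroblast markers other than collagens, 8 fell over both genotypes and 0 rose (median -1.11), with Clec3b at -3.51 ± 0.28 and Cd34 at -1.09 ± 0.18 (SE). Of the 11 fibrillar chains 0 passed (median -0.16), but 6 of them spanned under 1 log2 unit. The remaining chains were Col1a1 (-1.12), Col1a2 (-1.50), Col3a1 (-1.65), Col5a1 (-0.56) and Col5a2 (-0.56). The mean log2 level of the 14 markers was 10.33 and 10.55 in knockout at day 0, 9.32 in wild type at day 0, 8.68 and 9.36 in knockout at day 6, and 8.40 and 8.99 in wild type at day 6. Replicate 2 stood above replicate 1 in all 3 groups of 2 arrays, as did the mean of the 11 fibrillar chains. Dcn and Lum are on this list and among the fibril partners.

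Other tissue lists moved too. Of 14 skeletal muscle genes 10 fell, with Pvalb at -4.85 ± 0.27 and Ckm, muscle creatine kinase, at -1.60 ± 0.16 (SE; mean level 12.22 and 11.91 in knockout at day 0, with wild type at 10.61, and 8.32 to 9.82 at day 6), and of 11 adipocyte genes 7 fell, with Lep (leptin) at -5.81 ± 0.26 (SE; 10.49 and 10.18, 9.52, and then 7.24 to 8.04). Of 5 tendon genes 4 fell, of 6 Schwann cell genes 4, and of 7 pericyte and smooth muscle genes 4. Of 9 basal keratinocyte genes 2 rose (Cdh3 and Krt14) and 1 fell (Krt15), with the lowest mean level in the wild-type array of day 0 (9.96, against 10.31 to 10.96 in the other 6), as for Col17a1. The 11 endothelial genes, of which 1 rose, also had their lowest mean level in that array (7.45, against 7.99 to 8.91), as for Col4a1 and Col4a2. This was not particular to these lists. The same array was lowest for collagen modification (7.95), processing (7.32), receptors (7.77) and breakdown (7.61). It was also lowest for basement membrane partners (7.45) and the TGF-beta pathway (8.50), but not for the fibroblast, muscle and adipocyte lists, among others. Of 8 macrophage genes 0 rose and 0 fell, with 1 of 8 at an unadjusted p under 0.05 in limma. No marker of these lists stayed at the level of genes without signal in all arrays, apart from Matn1 of cartilage. The part of these cell types in the collagen values was not tested.

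**Figure D5:**
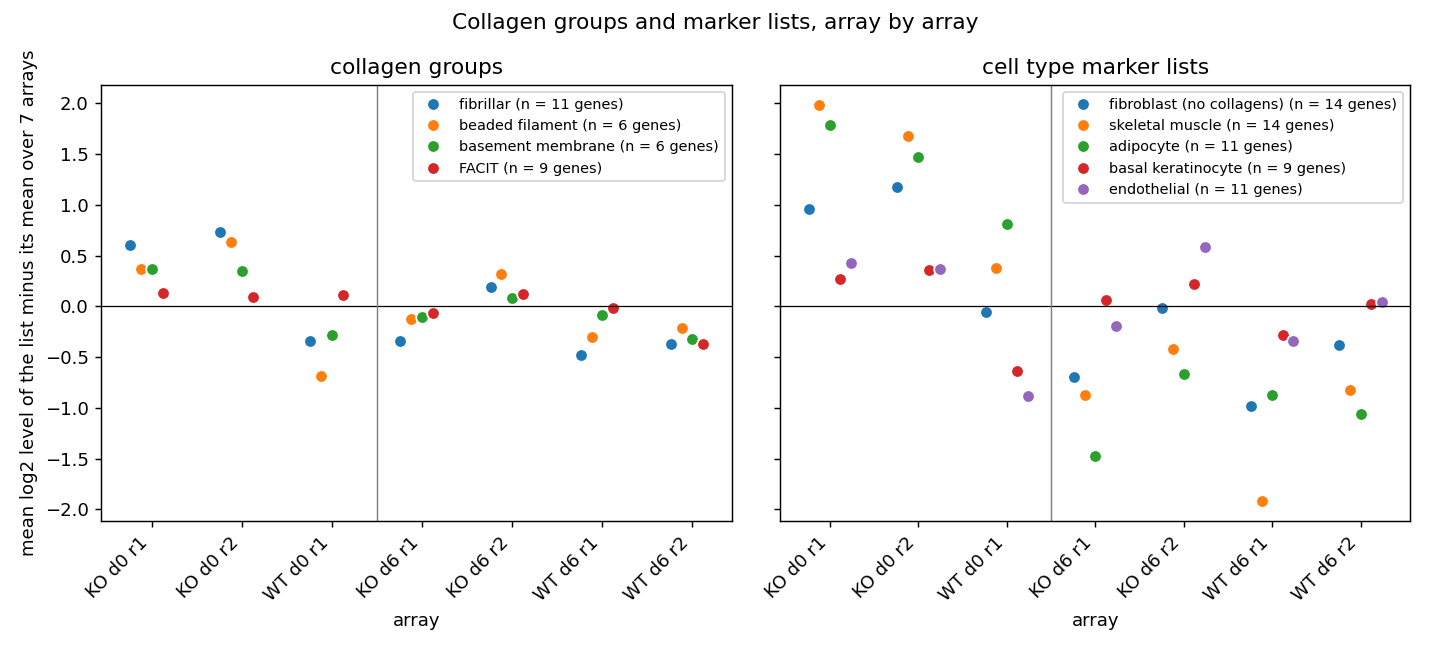
Mean log2 level of 4 collagen groups (left) and 5 cell type marker lists (right) in each of the 7 arrays, minus the mean of that list over the arrays; each point is 1 list in 1 array. Fibroblast, muscle and adipocyte lists are higher in the 2 knockout arrays of day 0 than in any other array, as are the fibrillar chains, and the basal keratinocyte and endothelial lists are lowest in the wild-type array of day 0.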

How the data were processed

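Labelled RNA of 7 samples was hybridised to 7 arrays. The values are log2 intensities that the authors deposited after RMA (background correction, quantile normalization and probe set summary) with R 2.11.1, which the submitters' processing notes name. RMA gives all arrays 1 distribution before the probe set summary, so a shift of the whole transcriptome would not show, and low values are compressed. The deposited values still differed a little between arrays. Their median over all probe sets ran from 5.61 in wild-type day 6 replicate 2 to 5.79 in the wild-type array of day 0. The genome build was not given in the sources used here.

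Of 34760 probe sets, 21640 carry 1 gene symbol in the platform annotation, 1321 several and 11799 none here. Each of 19937 genes was read from the probe set with the highest mean, with no filter on low values. limma 3.58.1 in R 4.3.3 fitted genotype plus day (4 residual degrees of freedom), and 4 group means (3) for the comparisons within a day or genotype. The single wild-type day 0 array took its error from the other groups. P-values were adjusted over all genes by Benjamini-Hochberg, with a threshold of 0.05. The fits were tested on simulated data with independent noise and no array or replicate effects, so that test does not bear on such effects. The number of arrays limits the precision.

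All 44 members are accounted for, and array values with a change and its error are given for members called in any comparison and for the 4 members of each structural group with the highest mean. From each other list, up to 4 genes with the smallest p in the day comparison are named, beside Iqgap1. Further members with array values, such as Col8a1 and Col6a5, were chosen after their values were seen. Members, lists and classes were chosen with earlier results of these data known. Of 207 listed genes 196 were measured. Alternatives left out each array, blocked replicates, centred arrays, changed probe sets or model, and, chosen after seeing the data, added a term for arrays with Xist signal.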

Additional observations from a re-analysis of the deposited data

Results flagged for a closer look

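The day change of Col17a1 differed between knockout and wild type by -1.92 (limma adjusted p = 0.0154), a difference tested as the interaction of genotype and day. The change was -0.45 in knockout and 1.47 in wild type. It rests on the single wild-type array of day 0, which read 9.19.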

How the results depend on the processing

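Over 27 member results and 406 alternatives, 329 kept direction and side of the threshold, 77 kept the direction but did not pass, and 0 turned direction. Counts of called members stayed within 1.5 times in 90 of 108 alternatives. Where no wild-type array of day 0 was left, the day change labelled over both genotypes came from knockout alone. This holds below for the 5 arrays without Xist signal and for the fit without the wild-type day 0 array. Over both genotypes the 4 day calls became 10 in the 5 arrays without Xist signal, 7 from the mean of the 4-group fit, 7 with a term for Xist signal, and 2 to 8 with 1 array left out (2 without knockout day 0 replicate 1 or knockout day 6 replicate 2, 7 without wild-type day 6 replicate 2, 8 without the wild-type day 0 array). The 8 calls in knockout became 5 with all probe sets tested and 2 to 10 with 1 array left out. The 3 calls in wild type became 2 whenever 1 array was left out. The 11 calls at day 0 became 1 with the Xist term and 4 to 12 with 1 array left out, and the 1 interaction call 0 to 1. Genotype over both days went from 0 to 12 in the 4-group fit. The causes were not tested, beyond fewer samples where arrays were left out. Centring arrays on their medians moved the median of all genes at day 0 from -0.09 to 0.05 and for the interaction from 0.06 to -0.08. With the Xist term the day change of Col11a1, Col4a3 and Col8a1, all near 0, changed sign.

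Replicate numbers were not shown to pair the samples: replicate differences correlated across genes at 0.09, 0.04 and 0.23. With the replicate block 6 members were called over both genotypes, 10 in knockout, 2 in wild type, 12 at day 0, 0 at day 6, 0 for genotype over both days and 1 for the interaction. Leaving out the wild-type day 0 array, or both arrays with Xist signal, gives no value for wild type over time, day 0 or the interaction.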
